A study of Homo sapiens with 6 samples.

Results

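Regions that carried H3K79me3, the trimethylated form of lysine 79 of histone H3, in KDM2B-knockdown cells and no other called H3K79 methylation were examined. The 4 peak lists of the chromatin immunoprecipitation sequencing (ChIP-seq) experiment, which are H3K79me2 and H3K79me3 in control cells and in knockdown cells, were merged where peaks shared at least 1 bp. The regions were chosen by the called peaks: a merged region was kept when every peak in it came from the knockdown H3K79me3 list. This gave 519 of 8899 merged regions (5.83%, exact Clopper-Pearson 95% interval 5.35 to 6.34%). Each of the 519 held 1 peak, so they were 519 of the 7066 knockdown H3K79me3 peaks (7.35%) on chromosomes 1 to 22, X and Y. They lay among 1810 merged regions (20.3% of all) that had an H3K79me3 peak in knockdown cells and none in control cells. These counts and the values of the peaks therefore describe the regions and are not tested.

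The cells were 293T, a human embryonic kidney line that expresses the SV40 large T antigen. The control line stably expressed the short hairpin RNA shCTL, and the knockdown line stably expressed shKDM2B, so that every group carried a hairpin. From each line 1 library was made with an antibody against H3K79me2 (Abcam ab3594), 1 with an antibody against H3K79me3 (Abcam ab2621) and 1 from input chromatin without antibody, so 6 libraries formed 6 groups of 1. The labels do not say whether a line was a clone or a pool, and the level of KDM2B was not analysed here. The ChIP libraries held 13144744 to 17044011 filtered tags, of which knockdown H3K79me3 had 16389356, and knockdown H3K79me2 was the shallowest. With 1 library per group there was no replicate, no test between lines and no p-value. Every difference below between lines or marks is one between libraries, and differences among knockdown H3K79me3 peaks lie within 1 library. The intervals cover counting error only.

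H3K79 methylation is unusual among histone lysine marks in lying on the globular core of the nucleosome rather than on a histone tail. DOT1L, an enzyme without a SET domain, adds the methyl groups one after another, so that trimethylation is reached through the lower states, and both H3K79me2 and H3K79me3 lie mainly over the 5′ part of transcribed genes. KDM2B joins a JmjC demethylase domain to a CXXC zinc finger that binds unmethylated CpG islands, where it brings a variant Polycomb complex. The study asked whether KDM2B removes methyl groups from H3K79. A region with H3K79me3 in knockdown cells and no H3K79me2 in either line is therefore one in which the highest methylation state was called without the state below it.

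The 519 peaks covered 1.53 Mb, which was 7.47% of the length and 6.62% of the tags of all knockdown H3K79me3 peaks. Their median width was 2186 bp, with quartiles at 776.5 and 4403 bp and extremes of 268 and 9018 bp. The other 6547 knockdown H3K79me3 peaks had a similar median, 2344 bp, but less spread, with quartiles at 1376.5 and 4033 bp. Tags are the aligned reads counted in a peak after removal of duplicates. The regions held a median of 115 tags (quartiles 32 and 288.5, highest 3333), against 186 tags in the other peaks. Per 1000000 filtered tags of the library and per kb of peak (RPM per kb), the median density was 3.15 in the 519 regions and 4.50 in the other peaks, and the highest densities were 27.1 and 58.1.

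Most of the regions were called close to the caller's limit, and a minority were not. The caller's score is 10 times the negative log10 of its p-value, so that the p cutoff of 1e-05 is a score of 50. The median score was 63.9 in the 519 regions and 233.75 in the other knockdown H3K79me3 peaks. A score under 60 was found in 210 regions (40.5%, 95% interval 36.2 to 44.8%) and in 5.21% of the other peaks. A score of 200 or more was found in 21 regions (4.05%, 95% interval 2.52 to 6.12%) and in 56.7% of the other peaks. The authors' fold enrichment over the local background of the same library had a median of 4.01 in the regions and 6.23 in the other peaks.

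**Figure D1:**
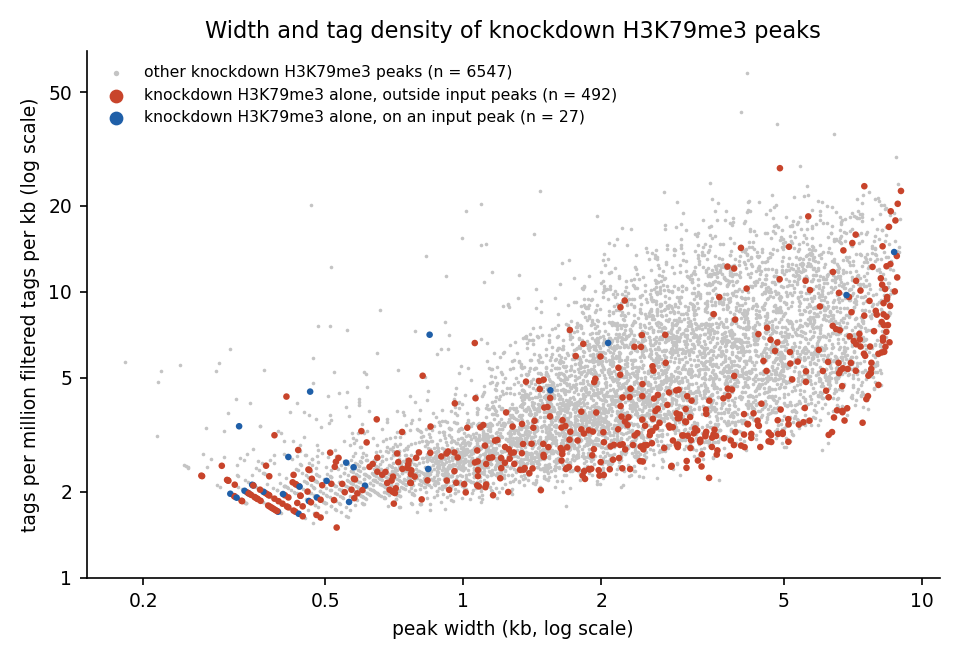
Each point is 1 knockdown H3K79me3 peak, placed by its width (kb, log scale) and its tag density (RPM per kb, log scale). Red and blue points are the 519 regions without any other ChIP peak, blue where they overlap an input peak, and grey points are the other 6547 peaks. Many coloured points lie along the lower edge of the grey cloud. In the densest 10% of the list lie 28 of them (5.39%), against 10.4% of the grey points.

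Width set apart several kinds of region. The share of knockdown H3K79me3 peaks that stood alone was highest at both ends of the width range. It was 13.0% among peaks under 1 kb (150 of 1154, 95% interval 11.1 to 15.1%) and 18.0% among peaks over 7 kb (63 of 350, 95% interval 14.1 to 22.4%). Between these limits it was 5.47% at 1 to 3 kb (176 of 3218) and 5.55% at 3 to 7 kb (130 of 2344). By score it fell from 38.1% of peaks scored 50 to 60 to 18.8% at 60 to 100, 4.73% at 100 to 200, 0.730% at 200 to 400 and 0.385% at 400 or more.

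**Figure D2:**
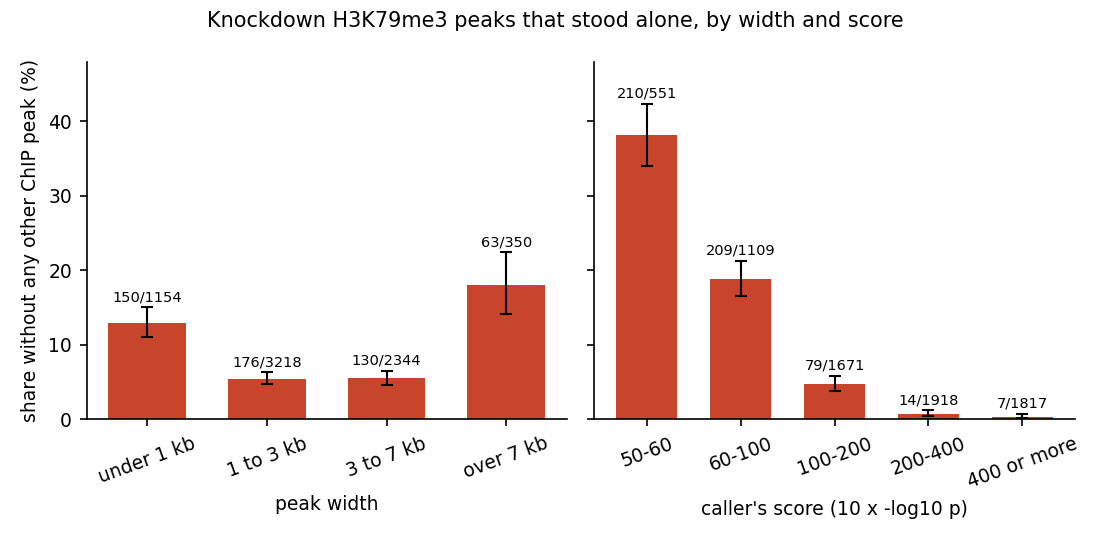
Bars give the share (%) of knockdown H3K79me3 peaks that stood alone in each class of peak width (left) and of the caller's score (right), with exact binomial 95% intervals and the counts above each bar. The share is highest under 1 kb (13.0%) and over 7 kb (18.0%), and falls from 38.1% to 0.385% with rising score.

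The 150 regions under 1 kb were sparse. They held a median of 17 tags and 2.11 RPM per kb, against 27 tags and 2.34 RPM per kb in other knockdown H3K79me3 peaks of that width. Of them 146 (97.3%) scored under 100, against 65.8% of the other peaks of that width. Their median score was 56.9, against 83.8 in those other peaks. Together the 150 regions held 2.00% of the tags of the 519 regions. Their fold enrichment was the highest of the width classes with a median of 7.84, and it was 8.35 in the other peaks under 1 kb. The 63 regions over 7 kb were the opposite case. They held a median of 1053 tags and 8.19 RPM per kb, close to the 1143 tags and 8.94 RPM per kb of the other peaks over 7 kb, and together 50.3% of the tags of the 519 regions. Of the 63, 43 scored under 100 (68.3%), against 36.9% of the other peaks over 7 kb. The median score was 74.3, against 120.42 in those other peaks, and the median fold was 3.51 against 3.73.

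By score, regions of middle width stood farther below other peaks of their width in the same list. At 3 to 7 kb the 130 regions had a median of 286 tags, 3.75 RPM per kb and a score of 86.5, whereas other peaks of that width had 495 tags, 6.68 RPM per kb and a score of 358. At 1 to 3 kb the 176 regions had a median of 99 tags, 3.02 RPM per kb and a score of 63.0, against 122 tags, 3.94 RPM per kb and a score of 246. Across the 519 regions tag density rose with width (Spearman's rho 0.82) and fold fell with it (rho -0.73), and the other 6547 peaks had rho values of 0.73 and -0.61. These correlations are across peaks of 1 library and share the width as a term, so they are given as a description.

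The position of the summit, the point of highest tag pile-up, moved outward with width. It lay in the middle 50% of the peak in 92.7% of the regions under 1 kb, 64.8% at 1 to 3 kb, 51.5% at 3 to 7 kb and 31.7% over 7 kb (20 of 63, 95% interval 20.6 to 44.7%). The other knockdown H3K79me3 peaks had shares of 91.7, 75.02, 45.7 and 32.1% in the same classes. In the regions over 7 kb the median distance from the summit to the nearer end was 1461 bp, and in other peaks of that width 1463 bp. In both sets of long peaks the highest pile-up thus lay toward one end in most cases.

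The 10 highest-scoring regions outside input peaks were 3899 to 6752 bp wide and lay on 9 chromosomes. The first was chr19:8509684-8514591 (hg19), with 2179 tags, 133 RPM (95% Poisson interval 127 to 139), a score of 1500.64 and 27.1 RPM per kb. Its density exceeded that of 99.9% of the knockdown H3K79me3 peaks, yet the nearest peak of any other ChIP list, a control H3K79me3 peak, was 27185 bp away. At chr17:74727977-74733636 there were 1704 tags, 104 RPM (95% interval 99.1 to 109) and a score of 768.9, and the nearest other peak was 20776 bp away. At chr22:39898139-39902290 there were 699 tags, a score of 723.08 and the highest fold of the 10, 7.42. By the rule these 3 regions, like every member, had no peak of either mark in control cells and none of H3K79me2 in knockdown cells. Neighbouring regions with both marks in both lines lay 20776 bp and 12071 bp from the second and the third.

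The next regions by score were chr17:53042245-53046143 (772 tags, score 419.87) and chr16:74696269-74700950 (522 tags, score 416.8). They were followed by chr1:224511296-224518047 (1546 tags, score 407.43) and chr11:17225077-17229678 (565 tags, score 403.73). The last 3 of the 10 were chr5:72143922-72149922 (875 tags, score 346.89), chr4:20253549-20260151 (1074 tags, score 334.65) and chr13:42846271-42851059 (488 tags, score 325.57). Their densities ran from 6.22 to 13.97 RPM per kb, all above the median of the list's other peaks, 4.50. Other peaks of 3 to 7 kb had a median of 6.68 RPM per kb, and the region on chromosome 13, at 6.22, lay below it. The region on chromosome 4 lay 441666 bp from any other ChIP list, and those on chromosomes 16 and 13 lay 293981 and 223114 bp away, so that nearness to a called domain was not shared by the 10.

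The 5 longest regions held 1630 to 3333 tags, including the 2 highest counts of the 519, but had low scores. The longest, chr1:93297361-93306378, held 3333 tags at 22.6 RPM per kb with a score of 64.04, and chr5:179125812-179134683 held 2957 tags at 20.3 RPM per kb with a score of 63.64. At chr22:16184399-16193168 there were 2556 tags and a score of 82.08, at chr3:154033699-154042529 1933 tags and 59.43, and at chr20:32882318-32891166 1630 tags and 53.23. In the first of these regions the summit lay at 9.41% of the width from the start and in the second at 9.72%. It lay at 89.2% in the region on chromosome 22, at 80.95% on chromosome 3 and at 40.5% on chromosome 20. By density the 5 stood between the 91.8th and the 99.8th percentile of the list, in which density rose with width. Other peaks over 7 kb had a median density of 8.94 RPM per kb. Each score was below the median of the list's other peaks, 233.75, and below that of the other peaks over 7 kb, 120.42. The caller took its local background over 10000 bp, and these regions were 8770 to 9018 bp wide; the part of this span in their scores and in the missing peaks of the other lists was not tested.

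The 519 regions lay at a median of 40640 bp from the nearest peak of the other 3 ChIP lists, with quartiles at 8018 and 133508 bp. Within 1 kb there were 57 regions (10.98%, 95% interval 8.42 to 13.99%), within 10 kb 149 (28.7%, 95% interval 24.9 to 32.8%) and within 50 kb 275 (52.99%). Taken by list, the median distance was 70431 bp to control H3K79me3, 72827 bp to control H3K79me2 and 98024 bp to knockdown H3K79me2. The shares within 10 kb were 19.3% (95% interval 15.96 to 22.9%), 20.6% (95% interval 17.2 to 24.4%) and 15.8% (95% interval 12.8 to 19.2%) in the same order, and these intervals overlap. Another knockdown H3K79me3 peak lay within 10 kb of 132 regions (25.4%, 95% interval 21.7 to 29.4%), against 20.3% of all knockdown H3K79me3 peaks, and within 1 kb of 56 regions (10.8%), against 7.98%.

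**Figure D3:**
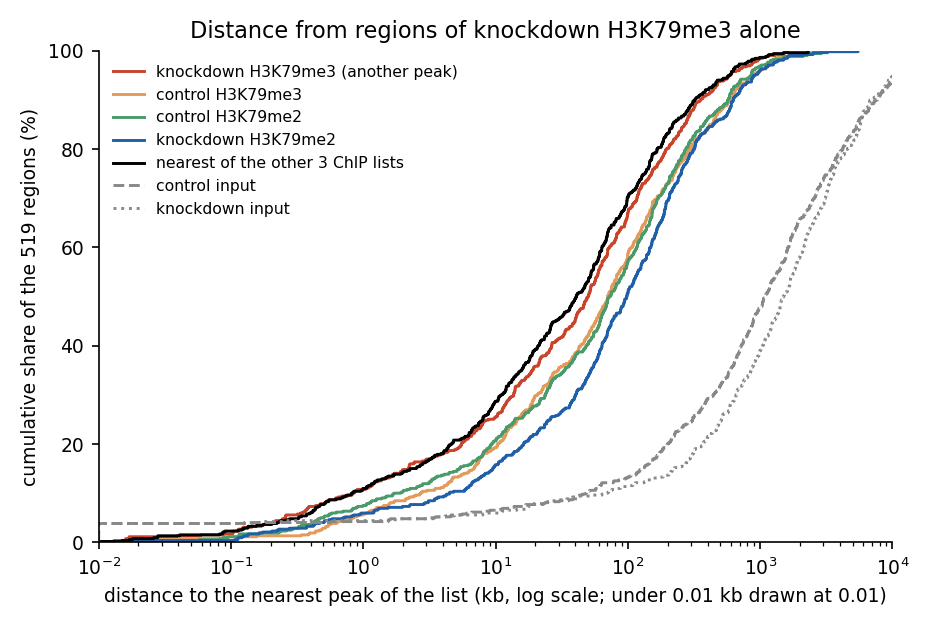
Curves give the cumulative share (%) of the 519 regions whose nearest peak of each list lies within the distance on the x axis (kb, log scale). The curves of the ChIP lists reach 15.8 to 25.4% at 10 kb and 28.7% for the nearest of the other 3 lists. The dashed and dotted curves of the control and knockdown input reach 6.55 and 5.97% there. The input lists held only 927 and 860 peaks and the ChIP lists 5597 to 7066, so these shares are not on an equal footing. Overlap counts as a distance of 0 for input, whereas the rule leaves none with the other 3 ChIP lists.

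No list of the other 3 lay within 10 kb of 370 regions (71.3%), 1 list did so in 57, 2 lists in 44 and all 3 in 48. The nearest other list was knockdown H3K79me2 for 222 regions (42.8%, 95% interval 38.5 to 47.2%), control H3K79me2 for 175 (33.7%) and control H3K79me3 for 122 (23.5%, 95% interval 19.9 to 27.4%). Those lists held 33.3, 36.7 and 30.1% of the other ChIP peaks. Knockdown H3K79me2 thus came first for the most regions, although by median distance it was the farthest of the 3. Knockdown H3K79me2 peaks were also the widest of the ChIP lists, with a median of 2985 bp.

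The regions nearest to another list included none of the longest. None of the 57 regions within 1 kb of another list was over 7 kb wide, against 6 of 92 at 1 to 10 kb, 27 of 215 at 10 to 100 kb and 30 of 155 beyond 100 kb (19.4%). The median width was 1468, 2212, 2442 and 2606 bp in these distance classes, and the median score 64.2, 62.1, 63.6 and 65.3. Seen by width, the share with another list within 10 kb did not follow a single direction. It was 26.7% under 1 kb (95% interval 19.8 to 34.5%), 41.5% at 1 to 3 kb (95% interval 34.1 to 49.1%), and 23.1% at 3 to 7 kb (95% interval 16.1 to 31.3%). In the widest class it was 9.52% (95% interval 3.58 to 19.6%). The median distance to another list was 45356, 15861.5, 54601 and 81423 bp in the same order. In all, 57 of the 63 long regions had no peak of another ChIP list within 10 kb.

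The rule's limit of 1 shared bp had few regions on either side of it. The nearest members were chr17:36860708-36861467, which was separated by 7 bp from a knockdown H3K79me2 peak, chr8:27694481-27695177, separated by 15 bp from a control H3K79me2 peak, and chr13:88325744-88329277, separated by 17 bp from a knockdown H3K79me2 peak. In all 12 regions lay under 100 bp from another list. Just outside the rule, knockdown H3K79me3 peaks at chr10:75382583-75385689 and chr12:109911745-109915243 shared at most 19 and 51 bp with a control H3K79me3 peak, and the peak at chr20:42938542-42938786 shared at most 55 bp with a knockdown H3K79me2 peak. Only 4 excluded peaks shared under 100 bp.

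At the other end, 7 regions lay more than 1 Mb from any peak of the other lists. The 2 farthest were neighbours, chr15:96874385-96882040 with 639 tags and a score of 86.2, and chr15:96882155-96884380 with 156 tags and a score of 77.9. They were separated by 114 bp, and the nearest other ChIP peak, of control H3K79me3, was 2310375 and 2308035 bp away. The third, chr11:24350084-24350454, held 15 tags at a score of 77.41 and a fold of 14.4, and lay 1499259 bp from a knockdown H3K79me2 peak. Such pairs of neighbouring regions were few. Runs of members within 10 kb of each other, with no other region between, numbered 11, each of 2 regions, and 8 of these pairs were under 1 kb apart. Examples are chr3:130456983-130465685, where peaks of 251 and 398 tags were separated by 17 bp, and chr6:144163821-144177412, where peaks of 1093 and 798 tags were separated by 16 bp.

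The region next to a member was most often one with both marks in both lines. This was so for 185 members (35.6%), and such regions made up 44.1% of all merged regions. The nearest region was another knockdown H3K79me3 region without other peaks for 52 members (10.0%, against 5.83% of all regions), and one with H3K79me3 in both lines and no H3K79me2 for 48 (9.25%, against 6.08%). It was a region of control H3K79me3 alone for 36 (6.94%, against 4.18%). In 74 members the nearest region lay within 1 kb; in 17 of these it had both marks in both lines, and in 16 it was another member.

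Input peaks mark places where tags pile up without antibody. Of the 519 regions, 27 overlapped an input peak of either line (5.20%, 95% interval 3.46 to 7.48%), against 3.82% of all knockdown H3K79me3 peaks. The control and the knockdown input were each overlapped by 20 regions, both by 13, and each alone by 7. Of the 27, 23 were under 1 kb wide, and their median was 17 tags and a fold of 9.15, against 125.5 tags and 3.97 in the 492 regions outside input peaks. Within the class under 1 kb the share on input peaks was 15.3% (95% interval 9.98 to 22.1%), beside 12.4% of the other peaks of that width. In the 3 wider classes, from narrow to wide, it was 1.14, 0.769 and 1.59%, beside 2.47, 1.81 and 1.39% of the other peaks.

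The densest regions on input peaks were chr8:101725704-101734417, with 1969 tags at 13.8 RPM per kb and peaks of both inputs in it, and chr9:71650730-71657588, with 1096 tags at 9.75 RPM per kb and a control input peak. The third was chr4:49141349-49142192, with 98 tags in 844 bp and peaks of both inputs, 1704 bp from a control H3K79me2 peak. The first 2 were 8714 and 6859 bp wide and lay 153505 and 252456 bp from any other ChIP list. They were the only 2 of the 27 wider than 3 kb.

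Regions that carried 1 other ChIP list alone were set beside the 519. Control H3K79me3 alone was found in 372 regions, which were longer, with a median of 3482.5 bp, 179 tags and a score of 71.3. Their density was 2.83 RPM per kb, and 69 of them (18.5%, 95% interval 14.7 to 22.9%) were over 7 kb, against 63 of the 519 (12.1%, 95% interval 9.46 to 15.3%). Knockdown H3K79me2 alone was found in 485 regions with a median of 1162 bp, 31 tags and 2.01 RPM per kb, and control H3K79me2 alone in 563 regions with 1052 bp, 38 tags and 2.28 RPM per kb. Only 1 and 2 of these H3K79me2 regions were over 7 kb. The whole lists held similar shares of peaks over 7 kb, 4.95% in knockdown and 5.06% in control H3K79me3, and 5.68% in knockdown and 5.64% in control H3K79me2. Long regions with a single list were thus found mainly where that list was H3K79me3. At least 1000 tags were held by 43 of the 519 regions of knockdown H3K79me3 alone (8.29%), near the 7.04% of the other knockdown H3K79me3 peaks. The counts were 31 of 372 for control H3K79me3 alone, 0 of 485 for knockdown H3K79me2 alone and 2 of 563 for control H3K79me2 alone. These are raw tags, not scaled to the depth of each library. Medians of score were close, at 63.9, 71.3, 64.1 and 63.6. Called width depends on the caller's estimate of fragment length, which was 126, 180, 210 and 148 bp in the same order, and its part in these widths was not tested. With 1 library for each list the difference between marks was not tested either.

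**Figure D4:**
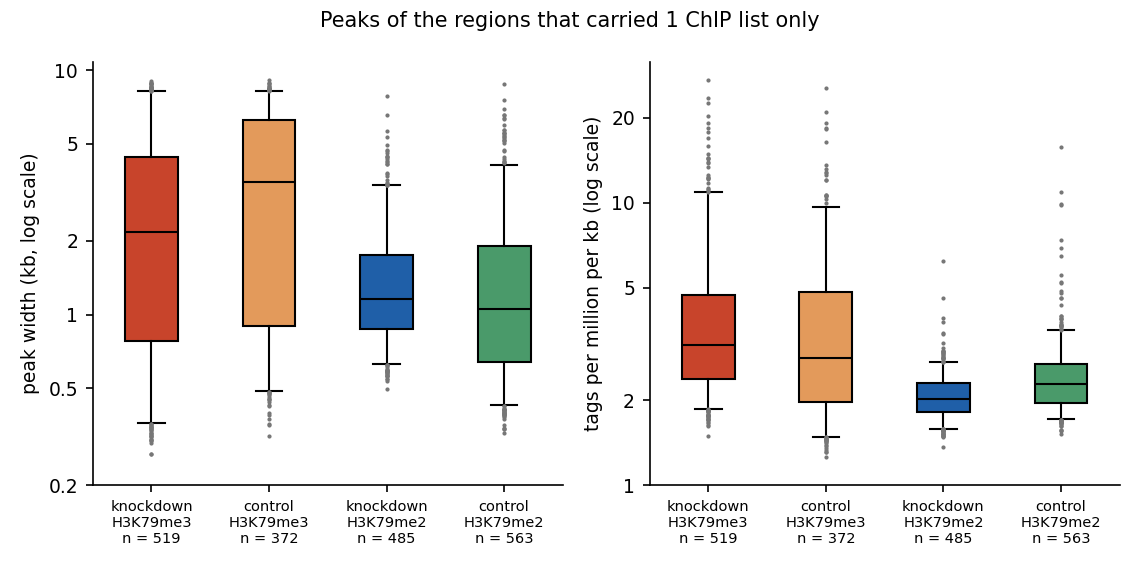
Boxes give the median and quartiles of peak width (left, kb, log scale) and tag density (right, RPM per kb, log scale) in regions that carried a single ChIP list, whiskers the 5th and 95th percentiles, and points the peaks beyond. The boxes of both H3K79me3 lists reach wider and denser peaks than those of both H3K79me2 lists, with 95th percentiles of 8223.5 and 8219.5 bp against 3382.4 and 4174.7 bp.

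The regions of H3K79me3 alone also differed from each other on input. Of the 372 control regions 60 lay on an input peak (16.1%, 95% interval 12.5 to 20.3%), against 5.20% of the 519, 1.03% of the knockdown H3K79me2 regions and 2.66% of the control H3K79me2 regions. Outside input peaks the counts were therefore 492 and 312. The share over all peaks of a list is given here for knockdown H3K79me3 only, 3.82%. For the other 3 lists it was not computed, so the shares of their regions on input peaks are given without it. The lists differ in length, with 7066 knockdown and 5597 control H3K79me3 peaks, and as a share of its own list knockdown H3K79me3 alone made up 7.35% (95% interval 6.75 to 7.98%) and control H3K79me3 alone 6.65% (95% interval 6.01 to 7.33%). These intervals overlap, and knockdown and control H3K79me2 alone made up 7.83 and 8.25% of their lists. Another list lay within 10 kb of 21.8% of the control H3K79me3 regions (95% interval 17.7 to 26.3%), against 28.7% of the 519. The median distances, 45113 and 40640 bp, were similar.

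Knockdown H3K79me3 peaks that had a counterpart in control H3K79me3 or in H3K79me2 were measured in the same way. In the 541 regions with H3K79me3 in both lines and no H3K79me2, the knockdown H3K79me3 peaks had a median width of 5733.5 bp, 538.5 tags, 5.73 RPM per kb and a score of 131. In the 958 regions where both lines carried H3K79me2 and knockdown cells alone carried H3K79me3, they had a median width of 1003 bp, 43 tags, 2.55 RPM per kb and a score of 104. The 519 regions lay between these in width, tags and density, and below both in score. Peaks over 7 kb made up 29.0% of the knockdown H3K79me3 peaks in the first kind, 0.0987% in the second and 12.1% in the 519. Long peaks were thus found in both kinds of region without H3K79me2, with and without an H3K79me3 call in control cells. They were not confined to these kinds. In regions with both marks in both lines, 39 of 4034 knockdown H3K79me3 peaks (0.967%) were over 7 kb.

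By mapped position the regions fell on all 24 reference chromosomes. On chromosome Y there were 2 of 31 merged regions, with a median width of 411.5 bp. The origin of the tags placed on Y was not tested, and Y is kept in the counts below. As a share of the merged regions of a chromosome, the regions ran from 3.33% on chromosome 19 (20 of 601, 95% interval 2.04 to 5.09%) to 8.65% on chromosome 5 (36 of 416, 95% interval 6.13 to 11.8%). These were the only 2 chromosomes whose interval did not include 5.83%, the share over all. The intervals are not adjusted for looking at 24 chromosomes, so a few may miss that share by counting error alone. Chromosome 7 was next to chromosome 19 with 3.77% (18 of 478). Knockdown H3K79me3 alone outnumbered control H3K79me3 alone on 17 of 24 chromosomes, equalled it on 2 and was less frequent on 5, by counts from lists of 7066 and 5597 peaks. As a share of each list's peaks on the chromosome, it was higher on 13 and lower on 11 of 24. By count, the largest difference in the other direction was on chromosome 7, with 18 against 29 regions. All chromosomes come from the same libraries and do not replicate each other.

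**Figure D5:**
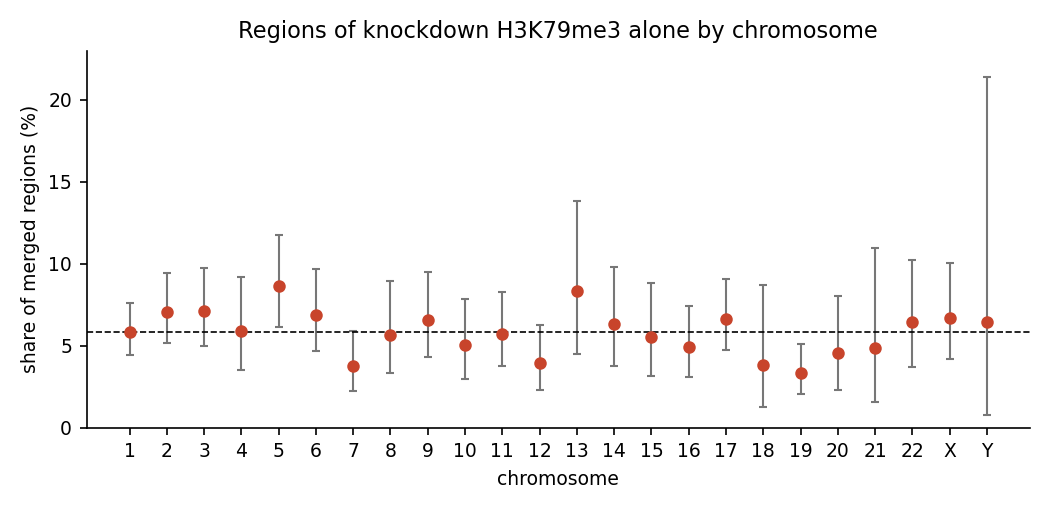
Points give the share (%) of each chromosome's merged regions that carried knockdown H3K79me3 alone, with exact binomial 95% intervals; the dashed line is the share over all chromosomes, 5.83%. Chromosome 19 (3.33%) lies below the line and chromosome 5 (8.65%) above it with the whole interval, and chromosome Y has the widest interval, from 31 regions.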

How the data were processed

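The files are peak lists of 6 ChIP-seq and input libraries of 293T cells. The submitters' processing notes name Bowtie2 and the build hg19 (GRCh37). Per the file headers, MACS 1.4.2 called peaks in each library alone, without a control file, at a p cutoff of 1e-05, keeping 1 tag per position and taking a regional background over 10000 bp. The tags deposited by the authors are raw counts per peak. The deposited fold enrichment is a ratio within the library, and the deposited score is 10 times the negative log10 p. Filtered tags per the file headers were 13144744 to 17044011 in the ChIP libraries. The estimated fragment was shortest, 126 bp, in knockdown H3K79me3 and 148 to 210 bp in the others, which affects called widths.

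Peaks of these chromosomes (1 to 22, X, Y) were merged in Python 3.11.15 with pandas 2.3.3, and distances are the bases between edges. bedtools 2.31.1 gave the same 519 regions and distances. In a simulation of the merge, 200 of 200 planted private peaks among 7066 were found, with 0 false ones. The planted gaps and overlaps fixed this outcome, so it checks the code only. Intervals came from scipy 1.17.1. The absence of a peak gives no value, so no fold between libraries was computed. Regions and classes were chosen with earlier results of these data known. Regions were named by rank of score outside input peaks, of width, of distance to the other lists, and of density on input peaks. Runs of members given as examples were chosen after their values were seen. No gene was assigned and no sequence is printed, because the reference tables at hand are of another build. Alternatives were other rules of overlap, stricter and equal lists, removal of input peaks, scaled scores and, chosen after seeing the data, leaving out each other list.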

Additional observations from a re-analysis of the deposited data

Results flagged for a closer look

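Sequences other than chromosomes 1 to 22, X and Y (unplaced contigs and alternative haplotypes) did not enter the comparisons, and knockdown H3K79me3 alone was also found there. Merging the 4 ChIP lists on those sequences gave 251 regions, of which 22 (8.76%) had knockdown H3K79me3 peaks only. Control H3K79me3 alone was found in 9 of them, knockdown H3K79me2 alone in 12 and control H3K79me2 alone in 28. The difference of 22 from 9 was not tested, and haplotype sequences repeat parts of the chromosomes.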

How the results depend on the processing

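The number of regions stayed within 1.5 times of 519 in 7 of 11 alternatives. It was 160 with lists of equal number (113 of them among the 519), 266 with the higher-scoring 50% of each list (20 among the 519), 1122 with a reciprocal overlap of 50% and 1067 without the control H3K79me3 list. A count near 519 does not mean the same regions. At a score of at least 100 it was 411, with 100 of the 519 kept, with the minimum fold 719 with 134 kept, and with scaled scores 375 with 274 kept. The share on input peaks stayed within its interval in all 11 alternatives applied to it. For this share the removal of input peaks was left out, and counting input peaks within 1 kb (5.39%) was added. Limits on score or fold act on the lists themselves, in which the medians were taken.

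In the order lists of equal number, higher-scoring 50%, score of at least 100, minimum fold at the median of 5.67, scaled scores and reciprocal overlap, the share within 10 kb was 18.75, 6.02, 11.2, 11.3, 21.3 and 67.0%. The median width was 3761, 4141.5, 3672, 1386, 3222 and 1073.5 bp, the median tags 257, 368, 244, 65, 192 and 46, and the median score 124, 256, 134, 130, 86.2 and 66.8. Joining peaks up to 1 kb apart gave a share of 19.9%. The share was 10.98% within 1 kb and 53.0% within 50 kb. Without the control H3K79me3 list the share was 16.7% and the medians 3989 bp, 298 tags and a score of 84.9. Without the knockdown H3K79me2 list the medians were 1538 bp and 73 tags, and without the control H3K79me2 list the score was 66.2. The cause of the other differences was not tested. No paired analysis was possible because each group has 1 library. Counting depth limits the narrow regions, which held a median of 17 tags.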
